A study of Mus musculus with 14 samples.

Results

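The mitochondrial ribosomal protein genes were taken as all genes whose single platform symbol is Mrpl or Mrps followed by a number. They comprised 74 of the 12393 named genes on the array, 47 Mrpl and 27 Mrps, with 127 of the 22626 probe sets tested. A probe set is the group of short probes that reports 1 transcript, and where a gene had several, the one with the highest mean signal across all 14 arrays stood for it. Probe sets with several symbols were not used, and 3 of them name such a gene. No filter on low values was applied, and 67 of the 74 members had a mean above the median of all probe sets. Mrpl39 was chosen by its difference between R6/2 and wild-type mice in these same arrays, so that its values in that contrast are a description.

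The arrays were hybridised with total RNA labelled as striatum from 6-week-old mice on a CBAxC57BL/6 background. R6/2 mice, a model of Huntington's disease, carry a transgene with exon 1 of human HTT and an expanded CAG repeat, driven by the human promoter, and keep both of their own Htt genes. The 7 R6/2 and 7 wild-type arrays were the control groups of 2 drug studies, and every mouse of either genotype had received normal saline 30 to 60 min before it was killed. By the start of the sample title, 4 arrays of each genotype belonged to a cohort called M.C here (replicates 1 to 4) and 3 of each to a cohort called Mith (replicates 5 to 7). The labels do not say whether arrays came from separate animals, so the p-values measure the spread between arrays, which may be technical. Bulk tissue was measured, so fewer cells of a type and less RNA per cell cannot be told apart.

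Mitochondrial ribosomes translate the few proteins that mitochondrial DNA encodes, all of them subunits of the respiratory chain and ATP synthase. Their RNAs come from mitochondrial DNA, but every one of their proteins is encoded in the nucleus, made in the cytosol and imported. The large subunit joins amino acids and the small subunit reads the mRNA, and each holds proteins with a bacterial counterpart beside proteins that occur only in mitochondria. Symbols do not always give the subunit: Mrps30 and Mrps18a are large subunit proteins, and Mrps36 is now regarded as part of the 2-oxoglutarate dehydrogenase complex. By these roles 49 members belonged to the large subunit, 29 of bacterial type and 20 specific to mitochondria. The small subunit held 24, of which 14 were of bacterial type and 10 specific to mitochondria. Mrps36 was placed in neither.

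The promoter windows of 5 members are shown because 2 of these genes, Mrpl39 and Mrpl57, passed the genotype test below, Mrpl52 and Mrpl23 were also among the 6 largest positive differences, and Mrpl32, another of those 6, was the member most like Mrpl39 from array to array. Each window runs from 150 bases before the RefSeq transcript start to 30 bases after it, 5′ to 3′ on the gene's own strand, in build GRCm38.p6. Capitals mark matches, on either strand, to GCGCANGCG (the letters bound by NRF1) or CCGGAAG (the core bound by ETS factors such as GABPA). Mrpl39 lies at chr16:84735215-84735394 on the minus strand, Mrpl57 at chr14:57826089-57826268 on the plus strand, Mrpl52 at chr14:54426759-54426938 on the plus strand, Mrpl23 at chr7:142532882-142533061 on the plus strand and Mrpl32 at chr13:14613008-14613187 on the minus strand.
Mrpl39: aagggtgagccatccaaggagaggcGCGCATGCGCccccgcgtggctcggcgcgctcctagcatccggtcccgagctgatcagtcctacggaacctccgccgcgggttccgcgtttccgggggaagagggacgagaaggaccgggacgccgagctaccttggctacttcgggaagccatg
Mrpl57: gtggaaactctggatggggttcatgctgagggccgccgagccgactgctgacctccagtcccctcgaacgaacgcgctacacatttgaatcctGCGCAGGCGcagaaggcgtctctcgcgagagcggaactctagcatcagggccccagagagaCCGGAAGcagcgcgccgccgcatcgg
Mrpl52: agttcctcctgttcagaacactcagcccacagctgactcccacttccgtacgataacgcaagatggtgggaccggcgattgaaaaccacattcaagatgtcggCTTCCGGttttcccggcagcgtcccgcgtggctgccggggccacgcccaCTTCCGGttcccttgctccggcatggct
Mrpl23: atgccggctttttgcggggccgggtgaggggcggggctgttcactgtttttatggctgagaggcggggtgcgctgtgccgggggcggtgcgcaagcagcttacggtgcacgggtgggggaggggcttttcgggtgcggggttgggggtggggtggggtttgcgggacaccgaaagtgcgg
Mrpl32: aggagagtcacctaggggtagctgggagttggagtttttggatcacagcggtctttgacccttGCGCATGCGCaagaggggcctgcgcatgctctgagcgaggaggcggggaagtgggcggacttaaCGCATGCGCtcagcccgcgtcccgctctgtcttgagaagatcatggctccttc
The GCGCATGCGC run in Mrpl39 and the first one in Mrpl32 hold the NRF1 letters on both strands, as overlapping matches. The window of Mrpl23 holds no match to any of these letters. Over the whole RefSeq window of 300 bases, 71 promoters of 65 members were found. The NRF1 letters stood in 15 of them (21.1%), against 10.6% of the 12566 promoters of named array genes and 6.25% of all 32851 promoters in the table. The ETS core stood in 24 (33.8%), against 14.01% of array genes and 8.86% of all. AANATGGCG, the letters bound by YY1, stood in 10 (14.1%), against 3.87% and 2.38%. At least 1 of the 3 motifs was present in 40 (56.3%), against 24.8% of array genes. These are matches of letters only, with no measure of binding. A further feature of position was a divergent neighbour: 24 of 65 members (36.9%) had another gene starting within 1000 bases on the opposite strand, against 16.6% of 9887 array genes. Mrpl46 and Mrps11 form such a pair with each other, Mrps12 pairs with Sars2 (the mitochondrial seryl-tRNA synthetase), Mrpl47 with the complex I gene Ndufb5 and Mrpl49 with Fau, which encodes a cytosolic ribosomal protein fusion.

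Over both cohorts most members had a small positive difference between R6/2 and wild-type striatum, and Mrpl39 and Mrpl57 were the 2 that passed the test. With a measure of RNA quality whose mean was higher in R6/2 arrays added to the fit, 40 of 74 members were above 0, the median was 0.01 and none passed. That fit called 56 of all 22626 probe sets, against 578 without the measure. Without it, in 61 of 74 members the fitted R6/2 minus wild-type difference was above 0, against 54.8% of all probe sets, and its median was 0.07 on the log2 scale, against 0.01 over all probe sets. The members' median was 0.04 without R6/2 replicate 7 and 0.04 without wild-type replicate 6, each left out alone. For 67 members the difference was smaller than 0.2 in size, and the median standard error was 0.07. A member was called at a Benjamini-Hochberg adjusted p under 0.05 in limma's moderated test, with genotype and cohort as terms and adjustment over all 22626 probe sets. By that rule 2 of 74 members were higher, where 0.362% of all probe sets were called higher. None was lower, where 2.19% of all probe sets were. At an unadjusted p under 0.05, 12 members were higher and 0 lower, against 5.69% and 9.53% of all probe sets.

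**Figure D1:**
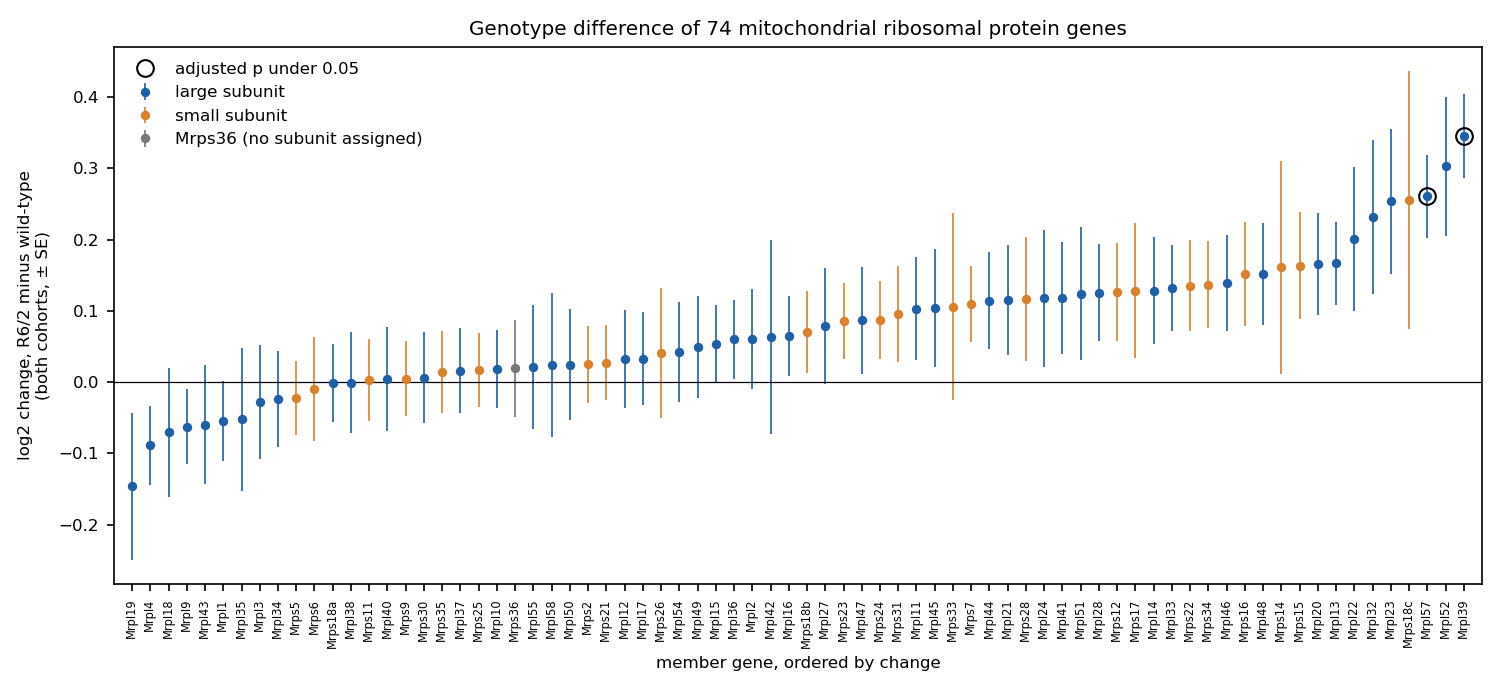
Log2 difference between R6/2 and wild-type arrays, adjusted for cohort, of the 74 members on the vertical axis (above 0, higher in R6/2), ordered from lowest to highest, with bars of 1 SE and colours for the subunit. Circles mark Mrpl39 and Mrpl57, which passed the adjusted test; 61 members lie above 0.

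Mrpl39, a mitochondria-specific protein of the large subunit, had centred log2 signals of 9.18, 9.26, 9.22 and 9.20 in R6/2 replicates 1 to 4 and of 8.88, 8.88, 8.86 and 8.99 in wild-type replicates 1 to 4. In the Mith cohort it had 9.42, 9.41 and 9.68 in R6/2 replicates 5 to 7 and 9.29, 8.95 and 9.11 in wild-type replicates 5 to 7. Every R6/2 array was above every wild-type array of its own cohort, and the highest wild-type array of Mith was above all R6/2 arrays of M.C. The fitted difference was 0.35 ± 0.06 (SE), a signal 127% of wild-type, with an adjusted p of 0.00495 in limma. Its second probe set differed by 0.19 ± 0.07 in the same direction and was not called (adjusted p = 0.164 in limma). The call ended when the cohort term was left out (adjusted p = 0.106) and when an RNA quality measure described below was added (0.29 ± 0.08, adjusted p = 0.136 in limma). Those fits called 100 and 56 of all 22626 probe sets, against 578 in the main fit.

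Set against the other 73 members, Mrpl39 had the largest change of the family over both cohorts and in M.C, and the fourth largest in Mith. In M.C the other members differed by 0.01 on average and Mrpl39 exceeded them by 0.31. In Mith the other members differed by 0.16 on average and Mrpl39 exceeded them by 0.23. The mean of these excesses was 0.27. The mean of the other members was also subtracted from Mrpl39 on each array, where only the change between arrays can be read. By that distance, R6/2 arrays of M.C ran from 1.09 to 1.26 and wild-type arrays from 0.78 to 0.93. In Mith the same distance ran from 1.10 to 1.31 in R6/2 and from 0.92 to 1.05 in wild-type arrays. The genotypes did not overlap in either cohort in this distance, which the choice of Mrpl39 favours and which was not tested.

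Mrpl57, another mitochondria-specific protein of the large subunit, was the other member that rose. Its signals were 8.25, 8.24, 8.25 and 8.23 in R6/2 and 8.19, 8.05, 8.01 and 7.92 in wild-type arrays of M.C. In Mith they were 8.75, 8.59 and 8.78 in R6/2 and 8.44, 8.21 and 8.43 in wild-type arrays. The genotypes did not overlap in either cohort. Mrpl57 rose by 0.26 ± 0.06 (120% of wild-type, adjusted p = 0.0243 in limma), and its second probe set differed by 0.09 ± 0.08 (adjusted p = 0.633). The call was lost without R6/2 replicate 1, R6/2 replicate 7, wild-type replicate 3 or wild-type replicate 4, each left out alone. Those fits called 280 to 341 of all 22626 probe sets, against 578 in the main fit. The call of Mrpl57 was also lost without the cohort term (100 probe sets called) and with the RNA quality measure added (56 called). It was lost too when the mean of its probe sets was used.

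**Figure D2:**
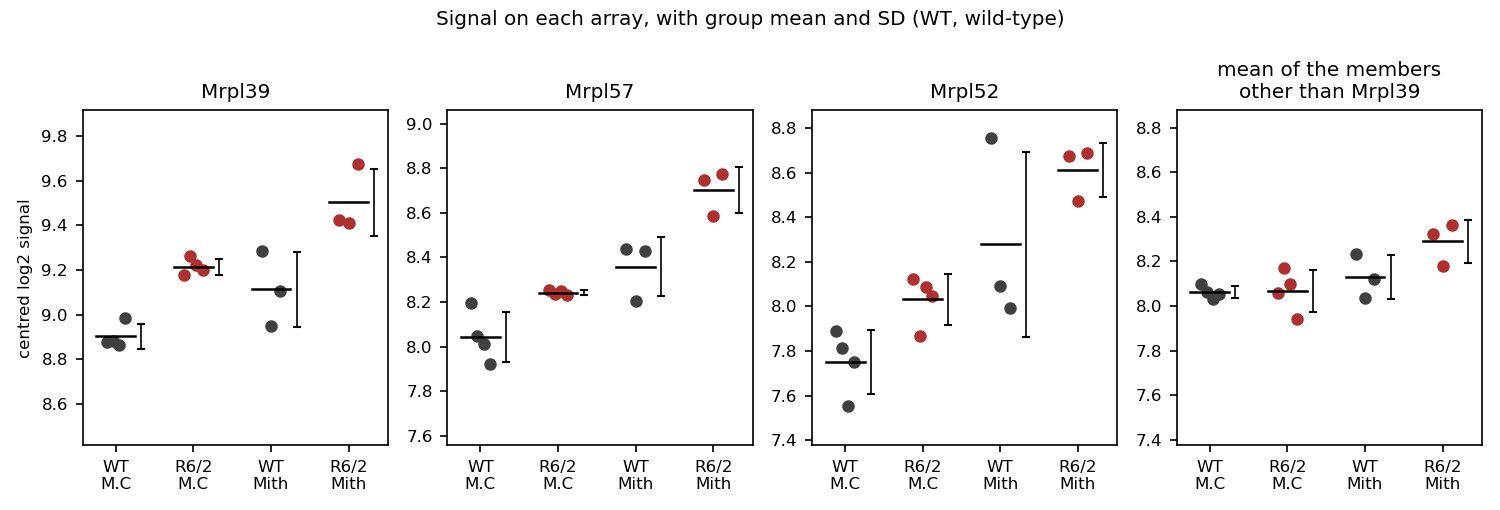
Centred log2 signal of Mrpl39, Mrpl57, Mrpl52 and the mean of the 73 members other than Mrpl39 on each of 14 arrays, by genotype and cohort, with a line at the group mean and a bar of 1 SD. In Mrpl39 and Mrpl57 the R6/2 points lie above the wild-type points of the same cohort, while Mrpl52 overlaps in both cohorts.

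The other 4 of the 6 largest positive differences did not pass the test. Mrpl52, a mitochondria-specific large subunit protein, differed by 0.30 ± 0.10 (adjusted p = 0.119 in limma). Its R6/2 arrays had 8.12, 7.87, 8.09 and 8.05 in M.C against 7.89, 7.81, 7.55 and 7.75 in wild-type, and 8.68, 8.47 and 8.69 in Mith against 8.75, 8.09 and 7.99. The groups overlapped in both cohorts, in Mith through wild-type replicate 5, the highest of its 14 arrays. Mrps18c, a bacterial-type small subunit protein, differed by 0.26 ± 0.18, Mrpl23 by 0.25 ± 0.10 and Mrpl32 by 0.23 ± 0.11. Mrpl23 and Mrpl32 are bacterial-type large subunit proteins. The 3 adjusted p-values were 0.552, 0.232 and 0.321 in limma.

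The 6 most negative differences were all in large subunit genes and none passed the test. Mrpl19 differed by -0.15 ± 0.10 (adjusted p = 0.551 in limma), Mrpl4 by -0.09 ± 0.06, Mrpl18 by -0.07 ± 0.09, Mrpl9 by -0.06 ± 0.05, Mrpl43 by -0.06 ± 0.08 and Mrpl1 by -0.05 ± 0.06. All but Mrpl43, which is specific to mitochondria, are of bacterial type. In Mrpl19 a single array stood high: wild-type replicate 1 had 7.69, where the other wild-type arrays of M.C had 6.99 to 7.11 and the R6/2 arrays ran from 6.87 to 7.02. The probe set of Mrpl19 is one marked as able to bind other transcripts, and its other probe sets differed by -0.34 ± 0.13 and -0.03 ± 0.06.

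By role, the median differences lay close together. It was 0.06 in both classes of the large subunit, with 21 of 29 bacterial-type and 17 of 20 mitochondria-specific members above 0. In the small subunit it was 0.10 for the bacterial type (12 of 14 above 0) and 0.09 for the mitochondria-specific proteins (10 of 10 above 0). Both called genes belonged to the mitochondria-specific proteins of the large subunit. Mrps36 differed by 0.02 ± 0.07. Of the 33 members with several probe sets, all probe sets of the gene shared a sign in 21. Of the 53 probe sets that did not represent a gene, 0 were called, 41 were above 0 and their median was 0.07.

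In M.C 38 of 74 members were above 0 with a median of 0.01, the median over all probe sets being 0.01. That count was 29 without R6/2 replicate 2, 56 without R6/2 replicate 4, 51 with quantile normalization, 50 without centring and 23 with the RNA quality measure as a covariate. In Mith 67 were above 0 with a median of 0.15, against 0.00 over all probe sets. In M.C Mrpl39 alone was called, higher by 0.31 ± 0.06 (adjusted p = 0.0216 in limma), where 0.155% of all probe sets were called higher and 2.31% lower. That call was lost without R6/2 replicate 1 or any one of wild-type replicates 1, 2 and 3. Those fits called 242 to 339 of all 22626 probe sets in M.C, against 558 in the main fit. In Mith no member was called, and neither was any other probe set (0% higher, 0% lower by limma). Without wild-type replicate 5, 13 of all 22626 probe sets were called in Mith, and without wild-type replicate 6, 6 were. No member was among them. At an unadjusted p under 0.05, 15 members were higher and 0 lower in Mith, against 4.82% and 4.05% of all probe sets.

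The difference between the cohorts' genotype effects was tested as an interaction, and limma called no member and no other probe set. Fitted as the M.C change minus the Mith change, it was below 0 in 66 of 74 members, with a median of -0.15 against 0.00 over all probe sets. That median was -0.09 without wild-type replicate 6 and -0.08 after quantile normalization. At an unadjusted p under 0.05, 6 members were below 0 and 0 above, against 6.17% and 3.61% of all probe sets. The signs agreed between cohorts in 39 members, of which 35 were above 0 in both, and 32 were below 0 in M.C and above 0 in Mith.

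**Figure D3:**
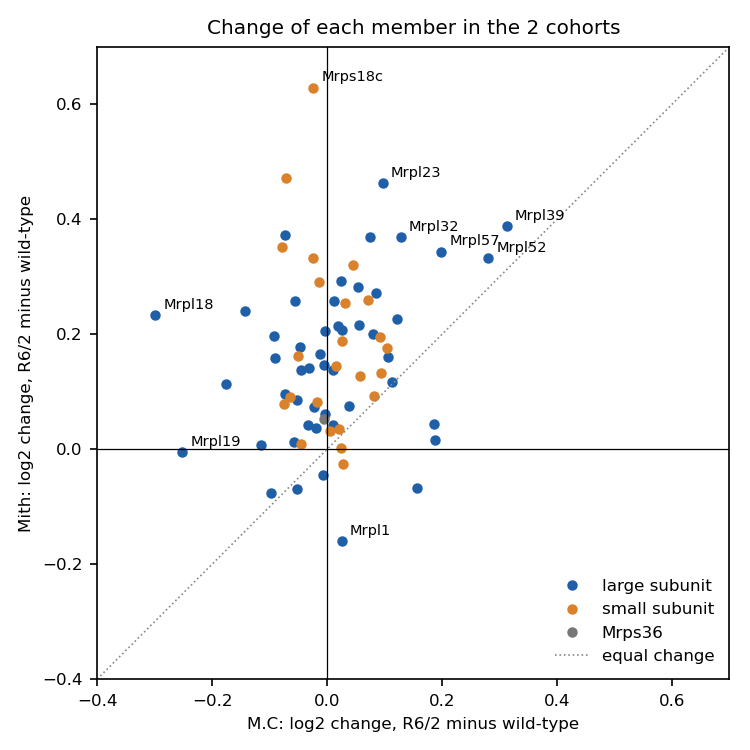
Log2 difference, R6/2 minus wild-type, of each member in M.C on the horizontal axis and in Mith on the vertical axis, coloured by subunit, with a dotted line of equal change. Most points lie above that line, 67 of 74 are above 0 in Mith and 38 are above 0 in M.C.

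The same values were also read by whether the arrays of the genotypes overlapped. In M.C 3 members (Mrpl39, Mrpl57 and Mrpl44) had every R6/2 array above every wild-type array, where 4.84% of all probe sets did. In Mith there were 15, where 6.61% of all probe sets did. Mrpl39 and Mrpl57 were the 2 members separated upward in both, where 0.389% of all probe sets were. Downward, Mrpl18 was the 1 member in M.C (6.33% of all probe sets), and there was none in Mith (6.34%) or in both (1.05%).

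Mrpl18, which also takes part in the import of cytosolic 5S RNA, went opposite ways in the cohorts. Its R6/2 arrays of M.C had 6.39, 6.59, 6.56 and 6.34 against 6.64, 6.78, 6.71 and 6.93 in wild-type. In Mith its R6/2 arrays had 6.97, 6.88 and 6.92 against 6.84, 6.51 and 6.73. The R6/2 arrays were all lower in M.C and all higher in Mith. The changes were -0.30 ± 0.08 and 0.23 ± 0.10, and their difference was -0.53 ± 0.13, with an adjusted interaction p of 0.291 in limma. Mrps18c differed by -0.02 ± 0.08 in M.C and 0.63 ± 0.31 in Mith, where its wild-type arrays alone ran from 7.71 to 9.06.

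The whole family moved up and down between arrays of a group. In M.C the R6/2 arrays averaged 8.08 ± 0.09 (SD, n = 4) over the 74 members, and the wild-type arrays averaged 8.07 ± 0.03 (SD, n = 4). In Mith the averages were 8.31 ± 0.10 (SD, n = 3) for R6/2 and 8.14 ± 0.10 (SD, n = 3) for wild-type. In the centred values R6/2 replicate 4 was the lowest array at 7.96, and R6/2 replicates 7 and 5 were the highest at 8.38 and 8.34. The deposited median of R6/2 replicate 4 was the highest of the 14 arrays, at 7.17. Centring therefore lowered that array most, and its rank depends on the centring. In Mith wild-type replicate 5, at 8.25, stood above R6/2 replicate 6 at 8.20, so that the genotypes overlapped in both cohorts.

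A measure of RNA quality had a higher mean in R6/2 arrays beside these values. It is the log2 signal of the array's control probes at the 3′ end of Actb minus that at the 5′ end, which grows as RNA is broken or copied short. The R6/2 arrays had 0.608 ± 0.181 (SD, n = 7) and the wild-type arrays 0.373 ± 0.143 (SD, n = 7), and the R6/2 mean was the higher one in each cohort. R6/2 replicate 2 had the highest value, 0.852. R6/2 replicate 4, the array with the lowest centred mean of the members, had 0.277, lower than every other R6/2 array. With this measure as a covariate the median genotype difference of the members was 0.01 over both cohorts, 40 of 74 were above 0 and limma called 0. That fit called 56 of all 22626 probe sets, where the fit without the covariate called 578. In M.C the median then became -0.08 and in Mith 0.11, while the median interaction was -0.16. Mrpl58, a peptidyl-tRNA hydrolase built into the large subunit, was the 1 member called lower in M.C in that fit, which called 1228 of the 22626 probe sets there.

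**Figure D4:**
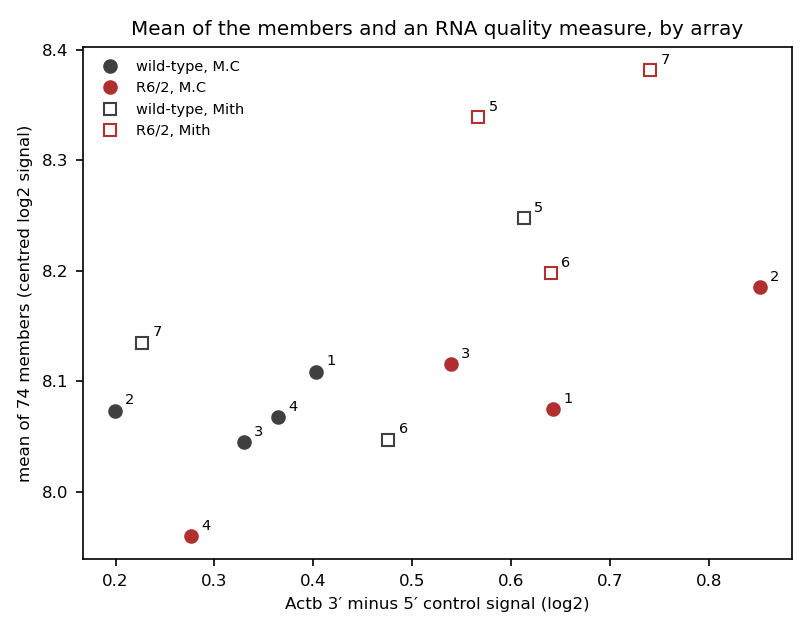
Mean centred log2 signal of the 74 members on the vertical axis and Actb 3′ minus 5′ control signal on the horizontal axis, 1 point per array, numbered by replicate, with filled circles for M.C and open squares for Mith. R6/2 replicate 4 is lowest at 7.96 and R6/2 replicate 7 highest at 8.38.

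Cell type markers also moved with genotype. For striatal projection neurons 10 markers were measured, of which R6/2 arrays had 6 called lower and 0 higher, Penk by -0.89 ± 0.11 and Ppp1r1b by -0.80 ± 0.13 (adjusted p = 0.000887 and 0.00437 in limma). These markers define the labelled tissue, and their mean log2 signals in wild-type arrays were 11.9 and 10.7. As the mean distance of the list from its own average, R6/2 arrays ran from -0.50 to -0.16 and wild-type arrays from 0.41 to 0.51 in M.C. In Mith they ran from -0.32 to -0.09 and from -0.24 to 0.25. The -0.24 belonged to wild-type replicate 5, within the range of the R6/2 arrays, where wild-type replicates 6 and 7 had 0.25 and 0.13. Of 8 mature oligodendrocyte markers 5 were lower and 0 higher, with R6/2 arrays from -0.66 to -0.36 and wild-type arrays from -0.33 to 0.19 in M.C, and from 0.04 to 0.35 and 0.51 to 0.74 in Mith. Of 8 astrocyte markers Gja1 was lower, and of the microglial, vascular, thalamic, cortical, choroid plexus and erythroid markers none was called over both cohorts. In Mith, where no probe set was called, the thalamic markers had a median difference of -0.56 with 0 of 7 above 0. The vascular markers had a median of -0.12 there with 0 of 6 above 0, and the astrocyte markers -0.14 with 1 of 8. In M.C the thalamic, vascular and astrocyte medians were -0.06, -0.07 and -0.25, with 3 of 7, 0 of 6 and 1 of 8 above 0. The microglial markers went the other way in Mith, with a median of 0.08 and 7 of 8 above 0, against -0.06 and 1 of 8 in M.C. Cortical markers had medians of 0.09 in Mith and 0.03 in M.C, with 3 of 4 above 0 in each. Choroid plexus and erythroid medians were -0.08 and -0.05 in Mith and 0.03 each in M.C. The vascular list ran from -0.17 to -0.10 in R6/2 and from -0.05 to 0.00 in wild-type arrays of Mith, and the thalamic list from -0.22 to 0.28 and from 0.23 to 0.92. The part of these shifts in the members' values was not tested.

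After the 4 means of cohort and genotype were taken out, the members still varied together over the 14 arrays. The median correlation of a member with the mean of the other members was 0.61, with 66 of 74 above 0, 47 above 0.5 and 8 below 0. The first component held 52.9% of the remaining variance. The highest were Mrpl22 (0.95), Mrpl23 (0.93), Mrpl46 (0.93) and Mrps14 (0.91). The lowest were Mrpl33 (-0.62), Mrps9 (-0.56) and Mrpl1 (-0.53). Each of these 3 genes has further probe sets, and the values hold only for the one that stood for it. The second probe set of Mrpl33 had 5.53 in R6/2 replicate 4, the array with the lowest centred mean of the members. The other R6/2 arrays of M.C had 5.97 to 6.00 there. Such correlations were not computed for further probe sets. Values on 1 array share its RNA, labelling and scaling, so these are descriptions.

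Mrpl39 followed the other members with a correlation of 0.68. The members most like it were Mrpl32 (0.94), Mrps25 (0.86) and Mrps18c (0.84). Over all 12393 named genes the 5 most like it were Ap3s1 (0.96), Eapp (0.95), Mrpl32, Pcna (0.93) and Rab3gap2 (0.93). Picking the highest of so many correlations on 14 arrays favours high values, so the ranking is a description. None of these 5 genes passed the genotype test. Ap3s1 differed by 0.08, Eapp by 0.13, Pcna by 0.10 and Rab3gap2 by 0.09.

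The difference between the cohorts themselves, with genotype as a term, played no part in choosing Mrpl39 or the members. It was larger than the genotype difference for much of the family: 25 members were lower in M.C than in Mith and 4 were higher, where 17% and 15.3% of all probe sets were called. The median was -0.11, against 0.01 over all probe sets, and -0.07 with the Actb covariate. The Actb measure ran from 0.199 to 0.852 in M.C and from 0.227 to 0.741 in Mith. The same 3′ minus 5′ measure for Gapdh ran from -0.004 to 0.570 in M.C and from -0.069 to 0.133 in Mith. By genotype, it ran from 0.102 to 0.570 in R6/2 and from -0.004 to 0.129 in wild-type arrays of M.C. In Mith it ran from -0.022 to 0.133 in R6/2 and from -0.069 to 0.056 in wild-type arrays. The Gapdh measure was not used as a covariate. With quantile normalization the counts were 23 lower and 8 higher, where 7411 of all 22626 probe sets were called, against 7312 in the main fit. The cohorts may differ in animals, time and processing, which cannot be told apart.

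**Figure D5:**
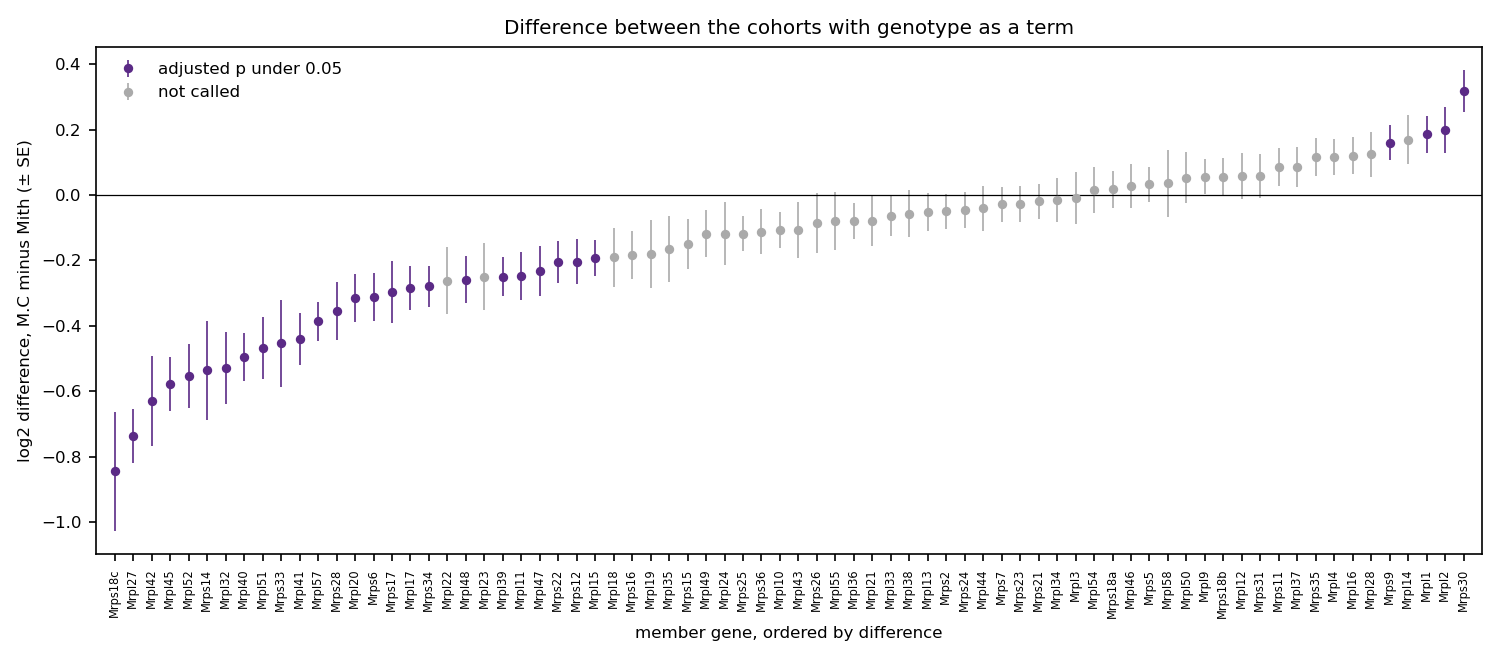
Log2 difference, M.C minus Mith with genotype as a term, of the 74 members on the vertical axis, ordered from lowest to highest, with bars of 1 SE. Purple marks the 25 members called lower and the 4 called higher in M.C; Mrps18c is lowest at -0.85 and Mrps30 highest at 0.32.

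Mrps18c was lowest in M.C relative to Mith, with a log2 difference of -0.85 ± 0.18 (adjusted p = 0.00214 in limma), or 55.7% of the Mith signal. Its arrays ran from 7.53 to 7.90 in M.C and from 7.71 to 9.30 in Mith, the overlap coming from wild-type replicate 6. Mrpl27, a bacterial-type large subunit protein, differed by -0.74 ± 0.08 (adjusted p = 9.72e-06 in limma). Its arrays had 8.74, 8.67, 8.51, 8.50, 8.76, 8.65, 8.64 and 8.60 in M.C and 9.69, 9.38, 9.43, 9.48, 9.01 and 9.24 in Mith, with no overlap. Mrpl42, Mrpl45 and Mrpl52, all specific to mitochondria, differed by -0.63 ± 0.14, -0.58 ± 0.08 and -0.55 ± 0.10. Mrpl39 and Mrpl57 were lower in M.C too, by -0.25 ± 0.06 and -0.39 ± 0.06 (adjusted p = 0.00445 and 0.00014 in limma). The second probe sets of Mrpl39, Mrpl57 and Mrpl42 differed by -0.08 ± 0.07, -0.21 ± 0.08 and 0.15 ± 0.07. The further ones of Mrpl52 differed by -0.25, -0.12 and 0.04. None of these other probe sets was called.

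The 4 members that were higher in M.C were Mrps30 (0.32 ± 0.06), Mrpl2 (0.20 ± 0.07), Mrpl1 (0.19 ± 0.06) and Mrps9 (0.16 ± 0.05). Mrps30 ran from 7.82 to 8.22 in M.C and from 7.75 to 7.95 in Mith, the overlap coming from R6/2 replicate 4. For Mrpl1 a second probe set was called the opposite way (-0.28 ± 0.07, adjusted p = 0.00481 in limma), and for Mrps9 one of its other probe sets was (-0.16 ± 0.06, adjusted p = 0.0438), so the direction of both genes is uncertain. All probe sets of a gene shared a sign in 19 of the 33 members that have several. Beside these values, 8 of 8 oligodendrocyte markers and 4 of 7 thalamic neuron markers were lower in M.C. In the other direction 3 of 6 vascular markers (Cldn5, Pecam1 and Vwf) and 2 of 10 striatal projection neuron markers (Drd2 and Foxp1) were higher in M.C, and 1 of those 10, Tac1, was lower. Of 8 astrocyte markers 1 was lower (Gja1), and of 8 microglial markers 1 was lower (Ctss) and 1 higher (C1qc). The part of these differences in the members' values was not tested.

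Other genes of the same machinery were read from lists. Of 4 measured mitochondrial ribosomal proteins with other symbols, none passed the genotype test over both cohorts, and Chchd1, a small subunit protein, was lower in M.C than in Mith (-0.91 ± 0.16, adjusted p = 0.000538 in limma). Of 9 translation factors none was called for genotype, with a median of 0.01. Tufm, the elongation factor that brings aminoacyl-tRNA to the ribosome, differed by -0.08 ± 0.05. Of 11 aminoacyl-tRNA synthetases and tRNA-charging factors none was called (median 0.07), nor of 18 assembly factors (0.05), nor of 9 genes of mitochondrial DNA transcription and upkeep (0.04), among them Tfam, which packs and transcribes that DNA (-0.04 ± 0.08). Of 24 import genes and chaperones Timm22, the pore of the inner membrane carrier translocase, was higher by 0.25 ± 0.05 (adjusted p = 0.0184 in limma). In M.C alone Tomm70a, an import receptor of the outer membrane, was lower in R6/2 (-0.56 ± 0.09, adjusted p = 0.00857 in limma).

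Of 11 regulators of nuclear genes for mitochondria none was called, with a median of -0.05. The coactivator Ppargc1a differed by -0.38 ± 0.15 (adjusted p = 0.226 in limma). The transcription factors Nrf1, Gabpa and Yy1, whose letters were sought in the promoters, differed by 0.02 ± 0.06, 0.12 ± 0.07 and 0.04 ± 0.05. Members with and without the NRF1 letters had median genotype differences of 0.07 (15 members) and 0.08 (50 members). With and without the ETS core they were 0.10 (24) and 0.06 (41), and with and without the YY1 letters 0.02 (10) and 0.10 (55).

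A pair of other lists served as a comparison, the complex I subunits, which the products of mitochondrial ribosomes join in the respiratory chain, and the proteins of the cytosolic ribosome. Of 33 complex I subunits none was called for genotype, with median differences of 0.11 over both cohorts, -0.02 within M.C and 0.28 within Mith. Between the cohorts 26 of the 33 were lower in M.C, with a median of -0.43. Of 43 cytosolic ribosomal proteins none was called for genotype either, with medians of 0.12, -0.01 and 0.26 in the same order. Between the cohorts 27 of the 43 were lower in M.C and 1 was higher, with a median of -0.36. The medians of the mitochondrial ribosomal proteins, 0.07, 0.01, 0.15 and -0.11 in that order, lay between those of these lists and those of all probe sets. That the members differ from either list was not tested.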

How the data were processed

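The deposited values are log2 signals per probe set for 14 arrays, a unit read from their range (2.96 to 14.5). The summarisation and normalization by the authors are not given in the sources used. Of 22690 probe sets, 64 controls were left out. The platform's table gave the symbols; 691 probe sets with several symbols were not used for members. The arrays were brought to one median, since the deposited medians spanned 0.108. Genotype (with cohort as a term, and within cohorts), its interaction with cohort, and cohort were tested with limma 3.58.1 in R 4.3.3, two-sided, with Benjamini-Hochberg adjustment over 22626 probe sets. Tables were made in Python 3.11.15. The fits were tested on simulated data. The number of arrays limits the precision.

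The members and lists were chosen with earlier results of these data known. Genes named were Mrpl39, called members, the 6 largest changes each way, the 5 largest called cohort differences each way, the 4 highest and 3 lowest correlations with the family, the 3 members and 5 genes most like Mrpl39, up to 2 called genes per list, and Ppargc1a, Nrf1, Gabpa, Yy1, Tfam and Tufm. Mrpl44, Mrpl58 and genes sharing a promoter region were named after their values were seen. Alternatives were no centring, quantile normalization, no cohort term, brighter probe sets, trended and robust variances, the Actb measure as a covariate, averaging the probe sets of a gene, each array left out, and, chosen after seeing the data, passing over cross-hybridising probe sets. Promoters are RefSeq windows of build GRCm38.p6.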

Additional observations from a re-analysis of the deposited data

Results flagged for a closer look

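Of 50 groups of 4 arrays tested, from 23 named members, the mean of the members and Mrpl39 minus the other members, 4 held an array farther from the others than Dixon's 95% critical value allows, and chance gives about 1 in 20. All lie in M.C, since groups of 3 arrays, as in Mith, were not tested this way. Mrpl33 had 6.93 in R6/2 replicate 2, where the other R6/2 arrays had 7.04 to 7.05. Mrpl39 had 8.99 in wild-type replicate 4, where the other wild-type arrays had 8.86 to 8.88. Mrps25 had 7.77 in wild-type replicate 3, against 7.72 to 7.73. Mrps30 had 7.82 in R6/2 replicate 4, the array with the lowest centred mean of the family, against 8.17 to 8.19.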

How the results depend on the processing

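No paired analysis was possible because the sample titles give the genotypes of a cohort no number in common, and the replicate numbers used here only name arrays in the order of the record. Over both cohorts 2 members were called. The count was 0 without the cohort term (Mrpl39 0.35, adjusted p = 0.106 in limma), 0 with the Actb covariate (Mrpl39 0.29) and 1, Mrpl39, after averaging the probe sets of each gene. Of all 22626 probe sets the main fit called 578, the fit without the cohort term 100 and the fit with the Actb covariate 56. After averaging, 440 of 14639 genes and unnamed probe sets were called. Leaving out each array in turn gave 1 to 4 members, where 280 to 879 of all probe sets were called. Mrpl39 was called in each of these 14 fits; without R6/2 replicate 4 the others were Mrpl23, Mrpl57 and Mrps34, and without wild-type replicate 5 they were Mrpl52 and Mrpl57. Quantile normalization added Mrpl13. In M.C the count of 1 became 0 after averaging the probe sets of each gene, ran from 0 to 1 with an array left out, and under the Actb covariate was 1 with another gene, Mrpl58. Over all probe sets in M.C, 558 were called in the main fit, 242 to 962 with an array left out and 1228 with that covariate. The M.C median of 0.01 became -0.075 with that covariate, -0.02 without R6/2 replicate 2 and 0.04 without R6/2 replicate 4, and was 0.05 after quantile normalization, when 51 of 74 members were above 0. Under these settings the count of members called in Mith and in the interaction stayed at 0. The 29 called between cohorts, where 7312 of all 22626 probe sets were called, ran from 23 to 34. The count was 23 without R6/2 replicate 5 or R6/2 replicate 7, where 6458 and 5995 of all probe sets were called. After averaging the probe sets of each gene it was 34, where 4649 of 14639 genes and unnamed probe sets were called. Causes of these moves were not tested.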
